A study of Mus musculus with 20 samples.

Results

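The 9 genes described here encode enzymes of the methionine cycle and of the one-carbon and sulfur pathways that branch from it. They were taken by gene symbol (Mat1a, Mat2a, Gnmt, Ahcy, Bhmt, Cbs, Cth, Shmt1 and Shmt2) from a deposited table of 20914 genes, and all 9 were among the 13670 genes with enough counts to be tested. The RNA came from left lateral lobes of livers of 20 males of strain LiB12cKO, all 8 weeks old. The 10 KO mice had the genotype HSD17B12lox/lox;Alb-CreCre/WT, and the 10 WT mice had the genotype HSD17B12lox/lox;Alb-CreWT/WT. All 20 mice therefore carried the floxed gene, and only KO mice carried Cre recombinase, which the albumin promoter drives in hepatocytes, so loss of the gene and the presence of Cre cannot be told apart. Hsd17b12 encodes a 3-ketoacyl-CoA reductase of fatty acid elongation, and the other cells of the liver keep it.

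The methionine cycle converts methionine to S-adenosylmethionine (SAM), the methyl donor of the cell. SAM is used by methyltransferases, the product S-adenosylhomocysteine is hydrolysed to homocysteine, and homocysteine is either methylated back to methionine or passed through cystathionine to cysteine by transsulfuration. The folate cycle carries one-carbon units taken mostly from serine and supplies a methyl group for the return to methionine. The liver is the main site of methionine breakdown, and a high level of Mat1a, Gnmt and Bhmt is typical of mature hepatocytes.

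Gnmt, which disposes of SAM, Ahcy, the remethylation gene Bhmt and the transsulfuration genes Cbs and Cth were lower in KO livers. Bhmt, the betaine-dependent remethylation enzyme, stood at 25.4% of its WT level, and Cth, Gnmt, Ahcy and Cbs stood at 40.7% to 50.6%. The cytosolic Shmt1 was at 64.0%. The SAM synthetase genes Mat1a and Mat2a and the mitochondrial Shmt2 were not called. In all, 6 of the 9 genes were lower at an adjusted p under 0.05 in edgeR's quasi-likelihood test with Benjamini-Hochberg adjustment, against 31.0% of all tested genes. None was higher, neither at the adjusted nor at the unadjusted threshold (0 genes each), against 28.2% of all tested genes. Either direction was called for 59.2% of all tested genes, so a call by itself is common in this comparison. Scaling by library size alone (explained below) left 5 of the 9 genes lower and 2 higher, against 6.71% of all tested genes lower and 68.4% higher under that scaling. The count of 6 lower genes with TMM factors was the same without KO_391 and WT_441, the mouse of each genotype nearest the other.

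Promoters of these genes are shown because 5 of the 7 with an entry fell together and 2 did not. RefSeq promoter entries for assembly GRCm38.p6, which run from 250 bases before to 50 bases after the start, matched 7 of the 9 genes; Mat1a and Cth had no match. Of the 5 that fell, Gnmt, Bhmt and Ahcy hold a nuclear receptor half-site and are printed. Cbs and Shmt1 fell as well but hold no half-site and are not printed. The 2 that were not called (Mat2a, Shmt2) hold none and are printed. The 5 printed promoters read 5′ to 3′ on the gene's own strand, which is the minus strand for all 5. Capitals mark AGGTCA and CCAAT on either strand, so that the reverse complements read TGACCT and ATTGG. They lie at chr17:46729116-46729415 for Gnmt, chr13:93637709-93638008 for Bhmt, chr2:155074448-155074747 for Ahcy, chr6:72439507-72439806 for Mat2a and chr10:127522395-127522694 for Shmt2.
Gnmt: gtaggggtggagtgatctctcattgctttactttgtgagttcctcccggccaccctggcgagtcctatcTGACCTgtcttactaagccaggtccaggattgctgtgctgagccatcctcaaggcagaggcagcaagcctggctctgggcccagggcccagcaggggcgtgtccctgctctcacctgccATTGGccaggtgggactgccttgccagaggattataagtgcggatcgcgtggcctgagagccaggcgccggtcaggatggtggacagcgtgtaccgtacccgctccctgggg
Bhmt: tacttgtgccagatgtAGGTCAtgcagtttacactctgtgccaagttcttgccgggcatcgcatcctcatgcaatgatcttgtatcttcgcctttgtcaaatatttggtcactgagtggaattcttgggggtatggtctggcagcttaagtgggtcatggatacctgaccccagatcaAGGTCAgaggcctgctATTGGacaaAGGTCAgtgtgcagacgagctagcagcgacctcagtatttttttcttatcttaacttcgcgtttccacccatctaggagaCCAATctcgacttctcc
Ahcy: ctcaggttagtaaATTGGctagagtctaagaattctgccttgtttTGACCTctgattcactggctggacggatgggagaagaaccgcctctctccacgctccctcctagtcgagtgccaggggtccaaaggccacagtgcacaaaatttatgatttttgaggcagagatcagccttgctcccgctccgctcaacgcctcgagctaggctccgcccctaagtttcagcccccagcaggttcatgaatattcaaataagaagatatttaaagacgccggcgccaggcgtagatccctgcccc
Mat2a: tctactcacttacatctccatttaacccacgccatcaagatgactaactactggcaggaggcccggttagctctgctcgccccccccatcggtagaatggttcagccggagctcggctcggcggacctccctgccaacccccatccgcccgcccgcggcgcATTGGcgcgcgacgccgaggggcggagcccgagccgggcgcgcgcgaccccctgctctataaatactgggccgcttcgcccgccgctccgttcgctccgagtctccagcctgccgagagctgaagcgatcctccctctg
Shmt2: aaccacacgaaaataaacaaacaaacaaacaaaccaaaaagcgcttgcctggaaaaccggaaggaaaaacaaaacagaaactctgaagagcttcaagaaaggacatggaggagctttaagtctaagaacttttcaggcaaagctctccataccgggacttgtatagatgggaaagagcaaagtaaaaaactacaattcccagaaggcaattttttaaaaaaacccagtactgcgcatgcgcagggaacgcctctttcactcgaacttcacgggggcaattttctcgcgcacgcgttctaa
AGGTCA, the half-site bound by many nuclear receptors, was present in 3 of the 7 promoters and in 16.3% of 32851 mouse promoters of the same length. Bhmt held 3 copies. CCAAT was present in 6 of the 7, all but Shmt2, and in 37.4% of all promoters, and the GC box GGGCGG in 4 of the 7 (Ahcy, Mat2a, Shmt1, Cbs) and in 35.7%. TGATGNAAN, an element of the form bound by ATF4, was found in 0 of the 7 and in 3.95% of all promoters. Both strands were searched and no match overlapped another motif. The motifs were chosen with the expression values known, and a match is a description of these letters only.

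Sequencing depth ran from 16693195 to 29124124 fragments assigned to genes per mouse. Hsd17b12 itself averaged 47.8 ± 2.39 CPM (counts scaled to a common library size) in KO mice and 152 ± 18.5 CPM in WT mice (SD, n = 10 each), with no overlap. CPM values here are scaled by TMM factors, which correct for a few abundant genes taking different shares of the reads; they averaged 1.18 in KO and 0.851 in WT mice. Scaling by library size alone adds 0.47 to the overall median log2 fold change, which is -0.02 over tested genes with TMM factors, so values under both scalings are given for the 9 genes and for the counts of each list. The mouse KO_391 stood apart from the other KO mice on the first principal component (-4.07, against -58.2 to -28.4), which separated the genotypes. KO_391 also had the highest CPM of the 10 KO mice for 8 of the 9 genes. The share of all tested genes for which KO_391 was highest was not counted. The p-values measure the spread between these individual mice.

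Synthesis of SAM is described first. Mat1a, the catalytic subunit of the adult liver's SAM synthetases (chromosome 14, 41105381 to 41124412, plus strand, mm10, as for all gene positions below), ranged from 1694 to 2675 CPM with a median of 2034 in KO mice, and from 1720 to 4028 CPM with a median of 2316 in WT mice. The KO range lay almost wholly inside the WT range, and 4 WT mice were above every KO mouse. The log2 fold change of KO over WT was -0.30 ± 0.15 (SE), with an adjusted p of 0.0802 by edgeR's quasi-likelihood test. The value was 0.16 with library size alone (adjusted p = 0.336), so its direction depends on the scaling. Leaving out WT_406, WT_407 or WT_408 in turn gave -0.35, -0.36 and -0.35 with adjusted p-values of 0.0430, 0.0409 and 0.0440.

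Mat2a encodes the SAM synthetase subunit of most other tissues, of fetal liver and of proliferating liver cells (chromosome 6, 72432799 to 72439558, minus strand). It ranged from 79.9 to 106 CPM with a median of 94.7 in KO mice, and from 73.2 to 114 CPM with a median of 88.5 in WT mice. The ranges overlapped across nearly their whole width. Its log2 fold change was 0.07 ± 0.07 with an adjusted p of 0.391. As a share of all assigned fragments Mat2a held 0.0109% in KO mice and 0.00750% in WT mice, and with library size alone the gene was called higher (log2 fold change 0.55, adjusted p = 8.53e-08). Mat2a shares exon bases with Particl, an RNA on the opposite strand, and no source used here states whether counting used strand, so reads of the 2 cannot be told apart.

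Gnmt, for SAM disposal, and Ahcy, for the removal of its product, were both lower. Gnmt, glycine N-methyltransferase, which methylates glycine to sarcosine and uses up excess SAM (chromosome 17, 46725664 to 46729165, minus strand), ranged from 445 to 1286 CPM with a median of 830 in KO mice, and from 1387 to 2448 CPM with a median of 1944 in WT mice. Every KO mouse was below every WT mouse, as for 6.47% of all tested genes. The log2 fold change was -1.18 ± 0.17 (adjusted p = 3.17e-06, edgeR's quasi-likelihood test). The WT mice fell into 2 sets of 5, at 1387 to 1704 CPM and at 2184 to 2448 CPM. The higher set was WT_389, WT_390, WT_415, WT_429 and WT_441, and the labels name nothing that separates the sets. The same sets also differed without overlap in Cth and Cbs, and in the opposite direction in Shmt1.

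Ahcy, S-adenosylhomocysteine hydrolase, which releases homocysteine and adenosine (chromosome 2, 155059310 to 155074497, minus strand), ranged from 452 to 1174 CPM with a median of 621 in KO mice, and from 1118 to 1847 CPM with a median of 1439 in WT mice. Of the 10 KO mice, 9 were below every WT mouse. The exception was KO_391 at 1174 CPM, and the next KO mouse was at 805 CPM. The log2 fold change was -1.14 ± 0.14 (adjusted p = 7.21e-07). Gnmt and Ahcy were also lower with library size alone, with log2 fold changes of -0.74 and -0.68.

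Bhmt, betaine-homocysteine methyltransferase, returns homocysteine to methionine with betaine as the methyl donor (chromosome 13, 93616891 to 93637758, minus strand). It ranged from 526 to 1829 CPM with a median of 786 in KO mice, and from 2009 to 5443 CPM with a median of 3924 in WT mice. The genotypes did not overlap, and the nearest pair was KO_391 at 1829 CPM and WT_441 at 2009 CPM. The log2 fold change of -1.98 ± 0.26 was the most negative of the 9 (adjusted p = 1.27e-06) and was -1.51 with library size alone. Bhmt also had the widest relative spread of the 9 within KO mice, with a coefficient of variation of 47.4%, and of 35.3% in WT mice.

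Both transsulfuration genes were lower. Cbs, cystathionine beta-synthase, joins homocysteine to serine (chromosome 17, 31612644 to 31637141, minus strand) and ranged from 184 to 422 CPM with a median of 265 in KO mice, and from 420 to 734 CPM with a median of 529 in WT mice. The ranges met at their ends, at 422 CPM in KO_414 and 420 CPM in WT_427, and the other 9 KO mice were below all WT mice. Cth, cystathionine gamma-lyase, splits cystathionine to cysteine (chromosome 3, 157894248 to 157925063, minus strand) and ranged from 130 to 428 CPM with a median of 203 in KO mice, and from 362 to 805 CPM with a median of 572 in WT mice. Again 9 of 10 KO mice were below all WT mice, with KO_391 the exception. The log2 fold changes were -0.98 ± 0.15 for Cbs (adjusted p = 1.15e-05) and -1.30 ± 0.20 for Cth (adjusted p = 1.46e-05); with library size alone they were -0.52 and -0.86.

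The serine hydroxymethyltransferases, which move a one-carbon unit from serine to tetrahydrofolate, differed from each other. Shmt1, the cytosolic enzyme (chromosome 11, 60788897 to 60811265, minus strand), ranged from 67.3 to 115 CPM with a median of 84.2 in KO mice, and from 112 to 185 CPM with a median of 127 in WT mice. It was lower in KO livers (log2 fold change -0.64 ± 0.10, adjusted p = 7.84e-06), with 9 of 10 KO mice below all WT mice, but with library size alone the call was lost (-0.17, adjusted p = 0.0727). Shmt2, the mitochondrial enzyme (chromosome 10, 127517123 to 127522444, minus strand), ranged from 175 to 292 CPM with a median of 235 in KO mice, and from 216 to 327 CPM with a median of 258 in WT mice. The ranges overlapped widely, and the log2 fold change was -0.14 ± 0.09 (adjusted p = 0.183). Shmt2 was called higher with library size alone (0.33, adjusted p = 2.78e-04), and with sample weights in limma-voom it was called lower (-0.19, adjusted p = 0.0453). Shmt2 shares exon bases with Ndufa4l2 on the opposite strand, so reads of the 2 cannot be told apart.

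Without KO_391, all remaining 9 KO mice were below all WT mice for 5 of the 9 genes (Gnmt, Ahcy, Bhmt, Cth, Shmt1), as for 9.07% of all tested genes. With KO_391 this held for 2 of the 9 (Gnmt, Bhmt) and 6.47% of all tested genes. In the authors' deposited table of ROTS statistics, the same 6 genes have a false discovery rate (FDR) under 0.05, all lower in KO; of 12820 listed genes 22.1% are higher and 18.9% lower by that rule. That table gives log2 fold changes of -2.01 for Bhmt, -1.33 for Cth, -1.20 for Gnmt, -1.17 for Ahcy, -0.996 for Cbs and -0.63 for Shmt1.

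**Figure D1:**
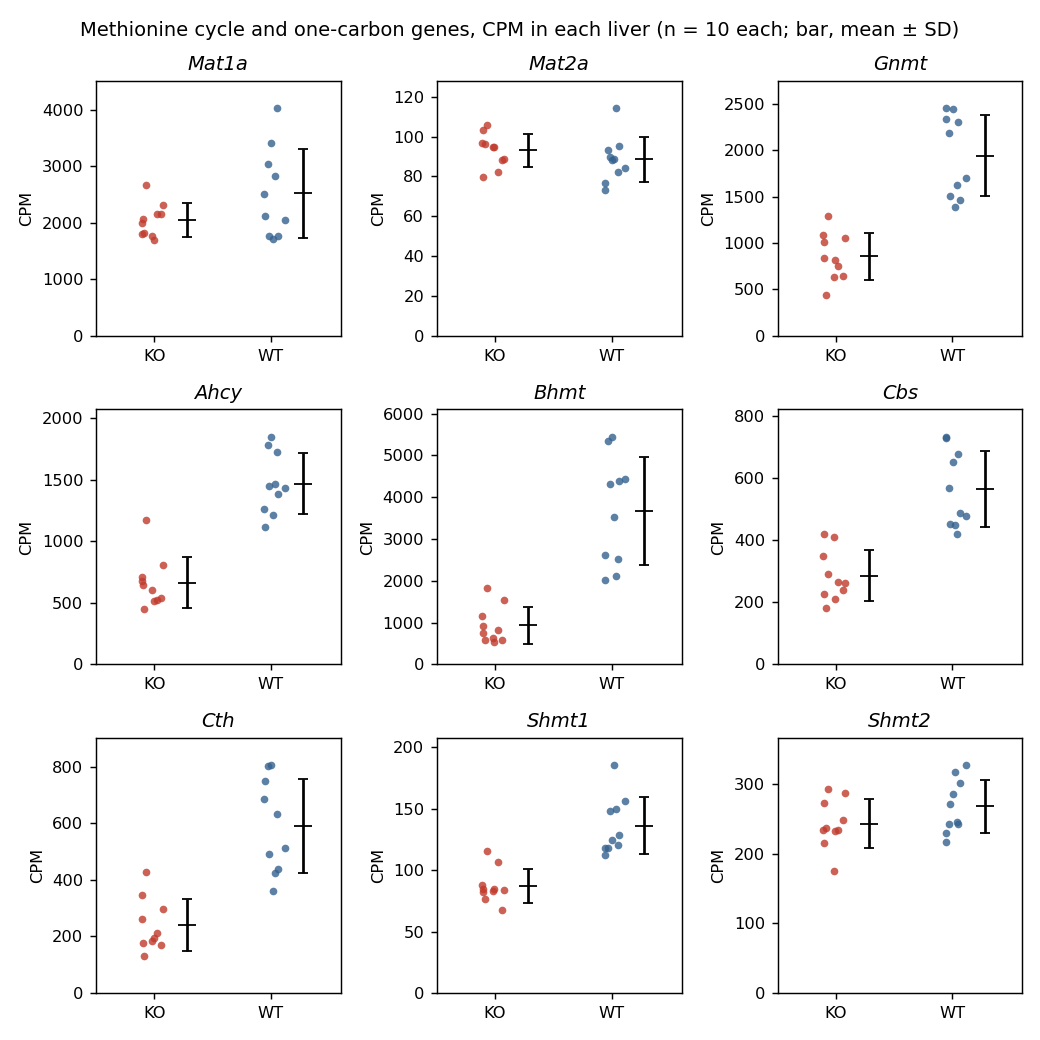
TMM-scaled CPM (vertical axes, from 0) of the 9 genes in each of 10 KO and 10 WT livers; points are mice and bars are mean ± SD. Gnmt and Bhmt show no overlap between KO and WT mice, while Mat2a and Shmt2 overlap widely.

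**Figure D2:**
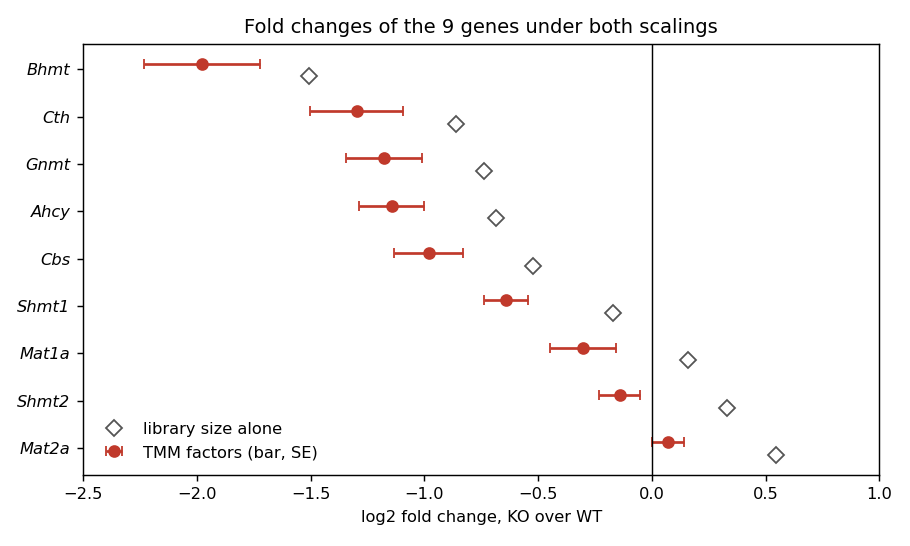
The log2 fold change of KO over WT (horizontal axis) for the 9 genes, as filled points with SE bars under TMM factors and as open diamonds under library size alone. Bhmt, Cth, Gnmt, Ahcy and Cbs lie below 0 under both scalings, and Mat1a and Shmt2 change sign.

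Levels of different genes were compared per length, as RPKM, the deposited values scaled for library and gene length. In KO mice the order of the mean levels was Gnmt at 831, Mat1a at 639, Bhmt at 451, Ahcy at 261, Cth at 133, Cbs at 118, Shmt2 at 105, Shmt1 at 42.3 and Mat2a at 33.2 RPKM. In WT mice the order was Gnmt at 1876, Bhmt at 1768, Mat1a at 786, Ahcy at 576, Cth at 327, Cbs at 233, Shmt2 at 116, Shmt1 at 65.8 and Mat2a at 31.5 RPKM. Bhmt and Mat1a thus exchange places between the genotypes: Mat1a was above Bhmt in 8 of 10 KO mice, and Bhmt was above Mat1a in 9 of 10 WT mice. Among neighbours in the KO order, ranges were separate only between Shmt2 and Shmt1, and Cth, Cbs and Shmt2 were not in a fixed order across mice. Among neighbours in the WT order, ranges were separate only between Cbs and Shmt2, Shmt2 and Shmt1, and Shmt1 and Mat2a, and Gnmt was above Bhmt in 4 of 10 mice.

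Ratios of 2 genes in the same liver do not depend on how libraries are scaled, and 4 were tested by two-sided permutation tests with 100000 resamples and adjusted over the 4. The ratio of mitochondrial Shmt2 to cytosolic Shmt1 was 2.49 in KO mice and 1.77 in WT mice (geometric means of RPKM ratios). Its log2 difference was 0.50 ± 0.10 (SE; permutation test, adjusted p = 6.4e-04), and 8 of 10 KO mice were above every WT mouse. The ratio of Bhmt to Ahcy was 1.64 in KO mice and 2.93 in WT mice. That log2 difference was -0.84 ± 0.18 (permutation test, adjusted p = 0.0011), with 6 of 10 KO mice below every WT mouse. On average Bhmt thus fell further than Ahcy. The WT log2 ratios lay apart, at 0.83 to 1.35 in WT_415, WT_427, WT_429 and WT_441 and at 1.84 to 1.96 in the others. Their mean of 1.55 lies between. WT_427, WT_429 and WT_441 were within the KO range of 0.33 to 1.22.

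The other ratios did not pass. Mat2a over Mat1a, a comparison of the fetal and adult forms, was 0.0523 in KO mice and 0.0415 in WT mice, a log2 difference of 0.33 ± 0.16 (permutation test, adjusted p = 0.0597). It passed when KO_402, WT_406, WT_407 or WT_408 was left out, with log2 differences of 0.36, 0.39, 0.39 and 0.40. Cth over Cbs was 1.10 in KO mice and 1.38 in WT mice, a log2 difference of -0.33 ± 0.17 (permutation test, adjusted p = 0.0597). It passed when KO_391, KO_402 or WT_407 was left out, with log2 differences of -0.43, -0.38 and -0.37.

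**Figure D3:**
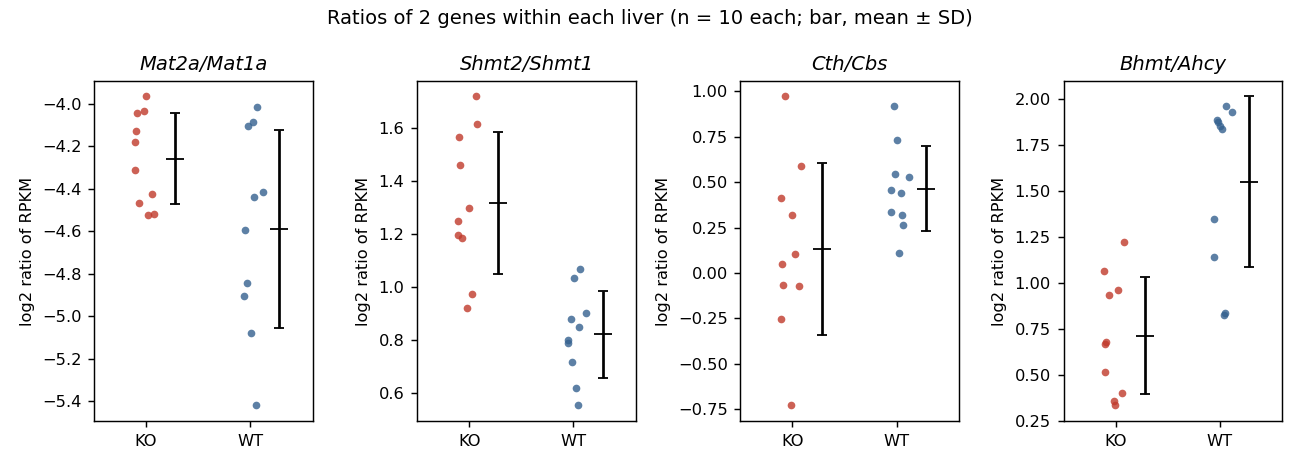
The log2 ratio of RPKM of 2 genes within each liver (vertical axes), for 10 KO and 10 WT mice; points are mice and bars are mean ± SD. Shmt2/Shmt1 is above every WT mouse in 8 KO mice and Bhmt/Ahcy is below every WT mouse in 6 KO mice.

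Within each genotype, pairs of the 9 genes were compared across mice on log2 CPM. In KO mice all 36 pairs were computed, 33 had a positive Pearson r, and 6 passed a permutation test of r adjusted over all 64 relations of both genotypes. These 6 were all the pairs among Gnmt, Ahcy, Bhmt and Cth. Gnmt and Cth had r = 0.93 and Spearman's rho = 0.89 (permutation p = 1.20e-04 and 0.0011, adjusted p = 0.00768 and 0.0298, n = 10), and r was 0.88 without the 2 mice farthest from the median of Gnmt. Bhmt and Cth had r = 0.90 and rho = 0.84 (permutation p = 4.40e-04 and 0.00356, adjusted p = 0.00939 and 0.0298), and r was 0.84 without 2 mice. Ahcy and Bhmt had r = 0.90 and rho = 0.87 (permutation p = 2.70e-04 and 0.00201, adjusted p = 0.00864 and 0.0298), and r was 0.84 without 2 mice. The remaining pairs, Ahcy with Cth, Gnmt with Ahcy and Gnmt with Bhmt, had r of 0.87, 0.84 and 0.81 (permutation p = 8.00e-04, 0.00268 and 0.00359, adjusted p = 0.0128, 0.0288 and 0.0328). Their rho was 0.77, 0.84 and 0.81 (permutation p = 0.0122, 0.00327 and 0.00723, adjusted p = 0.0650, 0.0298 and 0.0514), and r was 0.69, 0.74 and 0.80 without 2 mice. By the adjusted p of rho alone, Mat1a with Shmt2 (r = 0.76, rho = 0.85) and Cth with Shmt1 (r = 0.65, rho = 0.84) also passed (permutation test, adjusted p of rho = 0.0298 each, and of r = 0.0572 and 0.161). Without KO_391 only Gnmt with Cth passed by r (r = 0.91, permutation test, adjusted p = 0.0461), and the other 5 had r of 0.74 to 0.84. Both values of a pair share a library and its scaling factor; with library size alone 4 of 28 computable KO pairs passed, all among the same 4 genes.

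In WT mice the 28 pairs without Gnmt were computed, because the WT values of Gnmt fell into separate sets, and 4 passed by r. Cbs and Cth moved together (r = 0.83, rho = 0.77, permutation p = 0.00666 and 0.0122, adjusted p = 0.0426 and 0.0650, n = 10), and r was 0.82 without 2 mice. Shmt1 moved against Cth (r = -0.84, rho = -0.78, permutation p = 0.0027 and 0.0103, adjusted p = 0.0288 and 0.0650) and against Cbs (r = -0.82, rho = -0.87, permutation p = 0.00498 and 0.00242, adjusted p = 0.0361 and 0.0298). Mat2a moved against Cbs (r = -0.76, rho = -0.76, permutation p = 0.00507 and 0.0152, adjusted p = 0.0361 and 0.0746). Without the 2 farthest mice these 3 negative r were -0.79, -0.75 and -0.62. The 2 sets of WT mice seen for Gnmt, its higher set first, also differed without overlap in Cth (632 to 805 against 362 to 513 CPM). They did so in Cbs (569 to 734 against 420 to 490 CPM) and Shmt1 (112 to 125 against 128 to 185 CPM), without meeting the rule for separate sets. The relations among Cbs, Cth and Shmt1 therefore cannot be told apart from this split of the mice. Relations within each set were not tested. By the adjusted p of rho alone, Shmt1 with Shmt2 also passed (r = 0.72, rho = 0.87, permutation test, adjusted p = 0.0871 for r and 0.0298 for rho). With library size alone 0 of the 15 computable WT pairs passed, and 0 had an unadjusted permutation p under 0.05. Cbs then had r of -0.34 with Mat2a and -0.50 with Shmt1, and Cth could not be computed because its values fell into separate sets. Whether any relation differs between KO and WT mice was not tested.

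**Figure D4:**
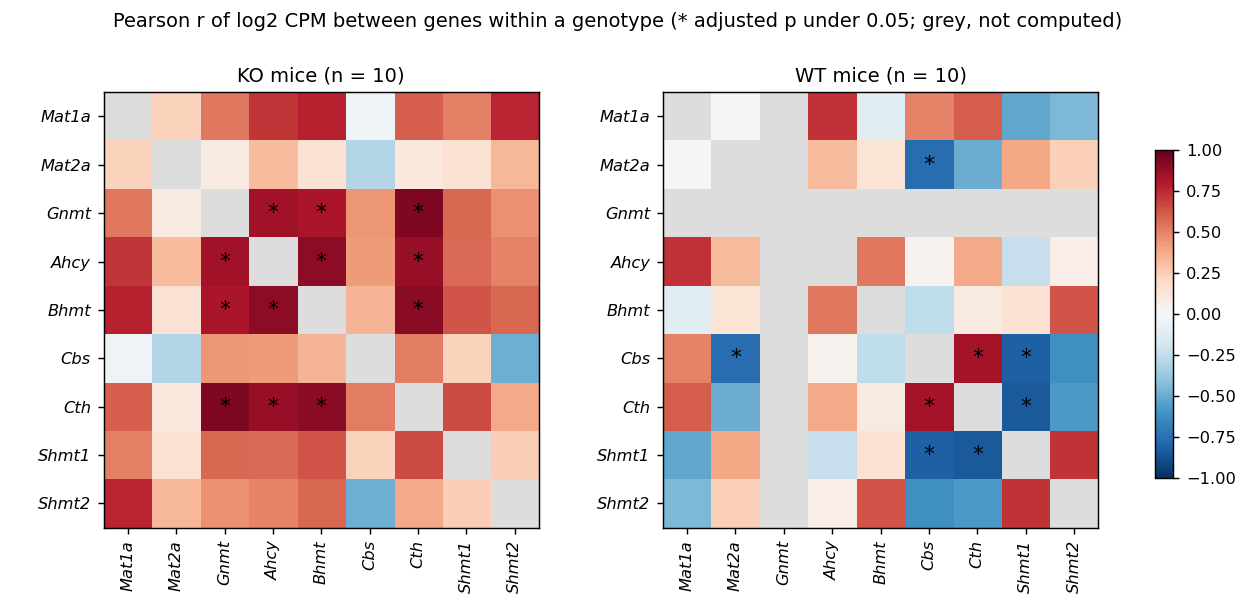
Pearson r of log2 CPM between each pair of the 9 genes, within 10 KO mice (left) and 10 WT mice (right), on a colour scale from -1 to 1; stars mark an adjusted permutation p under 0.05 and grey squares were not computed. The 6 starred KO pairs join Gnmt, Ahcy, Bhmt and Cth, and the 4 starred WT pairs involve Cbs or Cth.

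The genes whose levels followed each of the 9 most closely were taken by the Pearson r of log2 CPM centred within genotype, over 20 mice, as a description without a test. The search took in 10885 tested genes that have a symbol and a mean log2 CPM of at least 1, with predicted genes and the 9 themselves left out. Within these, Hgd, homogentisate dioxygenase of tyrosine breakdown, was closest to Cth (r = 0.93), followed by the tyrosine enzyme Hpd (0.91). Hgd and the folate enzyme Aldh1l1 came first for Gnmt, but its WT values fell into 2 sets, so only r within the 10 KO mice is given, 0.91 for Hgd and 0.93 for Aldh1l1. Tat, tyrosine aminotransferase, was closest to Mat1a (0.90), then Uap1 (0.86). The proline dehydrogenase gene Prodh (0.93) and Gstk1 (0.88) followed Bhmt, and Zbed5 (0.92) and adenosine kinase, Adk (0.90), followed Ahcy. The liver glutaminase gene Gls2 (0.93) and Slc3a1 (0.93), a subunit of a cystine transporter, followed Cbs. The co-chaperone gene Dnaja1 (0.89) and Eci2 (0.77) followed Mat2a. Sord (0.87) and Il15ra (0.86) followed Shmt1, and the mitochondrial tyrosyl-tRNA synthetase gene Yars2 (0.91) and Sfxn5 (0.90) followed Shmt2. WT values of Cth, Cbs and Shmt1 also differed without overlap between the 2 sets of mice seen for Gnmt, which enters their r. Within the 10 KO mice alone, r was 0.94 for Cth with Hgd and 0.97 with Hpd. For Cbs it was 0.92 with Gls2 and 0.94 with Slc3a1, and for Shmt1 0.93 with Sord and 0.88 with Il15ra.

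The rest of the pathway was read from 7 lists with 75 genes, of which 73 were tested; Phgdh and Aldh1l2 had too few counts. In all, 19 were higher, 34 were lower and 20 were not called in edgeR's quasi-likelihood test, against 28.2% higher and 31.0% lower of all tested genes. Their median log2 fold change was -0.16, against -0.02 for all tested genes. With library size alone 41 were higher and 16 lower, against 68.4% and 6.71% of all tested genes, with medians of 0.30 and 0.44. Adjusted p-values in the following paragraphs are from the same test over all genes. The counts of each list there are to be read against the same shares of all tested genes. These are 28.2% higher and 31.0% lower with TMM factors, and 68.4% higher and 6.71% lower with library size alone.

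Among 8 other genes of the methionine cycle, 1 was higher, 3 were lower and 4 were not called (median log2 fold change -0.22; with library size alone 5 higher and 1 lower). Adk, which removes the adenosine that Ahcy releases, was lower, at 380 ± 57.5 CPM in KO mice and 655 ± 58.8 CPM in WT mice (log2 fold change -0.78, adjusted p = 5.04e-08). Bhmt2, which remethylates homocysteine with S-methylmethionine, was at 142 ± 23.5 CPM in KO mice and 211 ± 21.9 CPM in WT mice (-0.58, adjusted p = 5.58e-06). With library size alone Bhmt2 was at -0.11 and no longer called. Mtr, the methionine synthase that uses folate and vitamin B12, was higher, at 5.23 ± 0.32 CPM in KO mice and 3.73 ± 0.60 CPM in WT mice (0.49, adjusted p = 1.07e-04; 0.25 on the scale of log2(RPKM + 1)). Of the remethylation genes, Mtr was thus higher while Bhmt and Bhmt2 were lower. Bhmt and Bhmt2 are related in sequence, and because multi-mapping fragments were not set aside, fragments that fit both may have been divided between them. Multi-mapping fragments averaged 3.34% of fragments in KO mice and 9.75% in WT mice, and their part in these values was not tested.

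Of 11 methyltransferases that use SAM, 1 was higher, 6 were lower and 4 were not called (median -0.22; with library size alone 5 higher and 4 lower). The number higher was 2 without WT_441. Gamt, which makes creatine, averaged 117 ± 17.3 CPM in KO mice and 220 ± 38.4 CPM in WT mice (log2 fold change -0.91, adjusted p = 1.14e-07). Pemt, which makes phosphatidylcholine, averaged 160 ± 17.8 CPM in KO mice and 266 ± 27.8 CPM in WT mice (-0.73, adjusted p = 1.70e-08). The drug-metabolising enzyme Tpmt averaged 31.6 ± 4.14 CPM in KO mice and 54.6 ± 11.6 CPM in WT mice (-0.79, adjusted p = 2.20e-06). Nnmt, nicotinamide N-methyltransferase, chosen after its values were seen, had the most negative log2 fold change of the list (-2.74 ± 0.67, adjusted p = 0.00177) but ranged from 1.96 to 54.8 CPM in KO mice and from 10.1 to 222 CPM in WT mice.

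The folate genes went both ways: of 19 tested, 5 were higher, 8 lower and 6 not called (median -0.08; with library size alone 11 higher and 4 lower). Mthfd1l, the mitochondrial enzyme that releases formate, was at 6.91 ± 2.39 CPM in KO mice and 0.924 ± 0.533 CPM in WT mice (log2 fold change 2.88 ± 0.31, adjusted p = 8.97e-08). Every KO mouse was above every WT mouse, as for 7.10% of all tested genes. Lower were Ftcd, the histidine-breakdown enzyme that feeds the folate pool, at 304 ± 63.8 CPM in KO mice and 623 ± 60.8 CPM in WT mice (-1.04, adjusted p = 5.18e-08), and the folate transporter gene Slc46a1, at 28.4 ± 2.98 CPM in KO mice and 45.3 ± 4.97 CPM in WT mice (-0.67, adjusted p = 3.86e-08). A further 3 genes were chosen after their values were seen. Mthfd2, the mitochondrial partner of Mthfd1l, averaged 9.11 ± 3.50 CPM in KO mice and 1.88 ± 0.67 CPM in WT mice (2.26, adjusted p = 3.70e-07). The cytosolic enzymes Mthfd1 and Aldh1l1, the second sharing exon bases with Gm15756 on the opposite strand, were lower, with log2 fold changes of -0.76 (adjusted p = 4.69e-07) and -1.04 (adjusted p = 8.25e-07). These signs held with library size alone, at 3.34 for Mthfd1l, 2.75 for Mthfd2, -0.30 for Mthfd1 and -0.59 for Aldh1l1. On the scale of log2(RPKM + 1), which understates changes of low genes, they were 1.07 for Mthfd1l and 1.44 for Mthfd2.

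Of 5 tested genes of serine synthesis and breakdown, 3 were higher and 2 lower (median 0.28; with library size alone 3 higher and 1 lower). Psat1, phosphoserine aminotransferase, averaged 5.57 ± 3.59 CPM in KO mice and 0.529 ± 0.419 CPM in WT mice (log2 fold change 3.38 ± 0.48, adjusted p = 5.30e-06). On the scale of log2(RPKM + 1), which understates changes of low genes, the value was 1.29. Psph, which releases serine in the last step, averaged 9.16 ± 2.06 CPM in KO mice and 5.26 ± 0.87 CPM in WT mice (0.80, adjusted p = 1.50e-05). Srr, serine racemase, which shares exon bases with Tsr1 on the opposite strand, averaged 67.1 ± 9.11 CPM in KO mice and 55.3 ± 3.41 CPM in WT mice (0.28, adjusted p = 0.00171). The serine dehydratase gene Sds, which shares exon bases with Plbd2 on the opposite strand, and the related Sdsl, chosen after their values were seen, were lower (-1.23, adjusted p = 0.0036, and -0.83, adjusted p = 0.0280). Sdsl lost its call with library size alone (log2 fold change -0.37, adjusted p = 0.306), with sample weights (-0.73) and when any of KO_404, KO_425, KO_434, KO_435, KO_453, WT_389, WT_390, WT_415 and WT_429 was left out (-0.77 to -0.72). In KO_391 several of the higher genes were at their lowest KO value: 0.318 CPM of Psat1 (other KO mice at least 1.89), 1.99 CPM of Mthfd2 (at least 6.22), 2.30 CPM of Mthfd1l (at least 5.08) and 5.64 CPM of Psph (at least 7.35).

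All 6 choline and betaine oxidation genes were called, 2 higher and 4 lower, where 59.2% of all tested genes were called in either direction. Their median was -0.55, and with library size alone 3 were higher and 3 lower. The 3 with the smallest adjusted p handle the methyl groups that follow betaine. Dmgdh, dimethylglycine dehydrogenase, which shares exon bases with AW495222 on the opposite strand, averaged 263 ± 55.5 CPM in KO mice and 536 ± 91.3 CPM in WT mice (log2 fold change -1.03, adjusted p = 1.73e-07). Sardh, which oxidises the sarcosine that Gnmt makes, averaged 398 ± 127 CPM in KO mice and 763 ± 76.7 CPM in WT mice (-0.94, adjusted p = 8.44e-06). Pipox, a peroxisomal sarcosine oxidase, averaged 147 ± 23.4 CPM in KO mice and 299 ± 22.7 CPM in WT mice (-1.03, adjusted p = 9.83e-10). The 2 higher genes, named after their values were seen, were Chdh, which oxidises choline toward betaine and shares exon bases with Cacna1d on the opposite strand (0.31, adjusted p = 0.0199), and the choline transporter gene Slc44a1 (0.50, adjusted p = 2.73e-04).

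Downstream of Cth, 13 genes of cysteine and sulfur metabolism divided into 2 higher, 8 lower and 3 not called (median -0.33; with library size alone 6 higher and 2 lower). The number higher was 4 when any of KO_391, KO_402, KO_435 and KO_453 was left out. Cdo1, cysteine dioxygenase, which shares exon bases with an opposite-strand gene that has no symbol, averaged 313 ± 56.2 CPM in KO mice and 596 ± 116 CPM in WT mice (log2 fold change -0.93, adjusted p = 4.99e-07). The sulfurtransferase genes Mpst and Tst were lower, with log2 fold changes of -0.73 (adjusted p = 5.02e-08) and -0.50 (adjusted p = 1.73e-06), and Tst lost its call with library size alone (-0.03). The 2 higher genes, named after their values were seen, encode enzymes of glutathione synthesis: Gclc (0.37, adjusted p = 0.00988) and Gss (0.41, adjusted p = 5.39e-04).

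Among 11 genes of polyamine synthesis and methionine salvage, 5 were higher, 3 lower and 3 not called (median 0.17; with library size alone 8 higher and 1 lower). The lower genes were Paox, a polyamine oxidase (log2 fold change -0.79, adjusted p = 1.45e-06), and the salvage enzymes Apip (-0.60, adjusted p = 7.60e-07) and Adi1 (-0.27, adjusted p = 0.00111). Apip was no longer called with library size alone (-0.13), and Adi1 then had the opposite sign (0.20). Odc1, which starts polyamine synthesis and was chosen after its values were seen, averaged 60.4 ± 5.29 CPM in KO mice and 51.1 ± 6.33 CPM in WT mice (0.24, adjusted p = 0.00434). Likewise named after their values were seen, Sms (0.69, adjusted p = 0.00131) and Sat1 (0.49, adjusted p = 0.00152) were higher. The remaining higher genes were Mri1 (0.29, adjusted p = 0.00319) and Mtap (0.17, adjusted p = 0.0147).

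In the authors' deposited gene ontology table, the term for the serine family of amino acids has an FDR of 0.0268 over 37 annotated genes and that for cysteine metabolism 0.0291 over 16. The terms for one-carbon metabolism, tetrahydrofolate and methionine metabolism stand at 0.0884, 0.103 and 0.257 in the authors' deposited table.

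Markers of the liver's cell types were counted in the same way, where 28.2% of all tested genes were higher and 31.0% lower. Summed levels of markers are in the normalized signal deposited by the authors, not in TMM-scaled CPM. All 12 hepatocyte markers, led by Alb, Ttr and Apoa1, were lower in KO livers (median log2 fold change -0.68), and their summed level was 54729 to 68810 in KO mice and 84270 to 120691 in WT mice. With library size alone 5 of the 12 were lower and 1 was higher, against 6.71% and 68.4% of all tested genes. The median of the 9 methionine and one-carbon genes was -0.98 under TMM factors and -0.52 with library size alone, where that of the hepatocyte markers was -0.23. Of 14 macrophage markers 12 were higher and 2 not called, with a summed level of 439 to 786 in KO mice and 201 to 397 in WT mice. All 7 lipid-associated macrophage markers were higher (sums of 107 to 426 in KO mice, 41.7 to 67.9 in WT mice). So were 8 of 10 stellate cell markers (sums of 306 to 565 in KO mice, 164 to 330 in WT mice). Of 8 endothelial markers 3 were higher (sums of 170 to 211 in KO mice, 116 to 221 in WT mice). With library size alone the numbers higher were 13 of 14 macrophage, 7 of 7 lipid-associated macrophage, 8 of 10 stellate cell and 8 of 8 endothelial markers. Under that scaling 68.4% of all tested genes were higher. Of 8 tested proliferation markers 7 were higher with TMM factors and 8 with library size alone (sums of 33.7 to 169 in KO mice, 29.7 to 43.5 in WT mice). The biliary and the lymphocyte and neutrophil lists were low in both genotypes, summing to 20.9 to 27.9 and 3.24 to 16.5 in KO mice, and to 25.9 to 40.5 and 5.92 to 15.4 in WT mice. Of their 5 tested genes each, 1 was higher and 2 lower in the biliary list and 1 was lower in the other. By library size alone 2 biliary genes were called, both higher, and the other list again had 1 lower. No gene of these lists was at 0 in all mice. In whole tissue, fewer hepatocytes and less RNA per hepatocyte cannot be told apart, and the part that these markers have in the changes of the 9 genes was not tested.

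**Figure D5:**
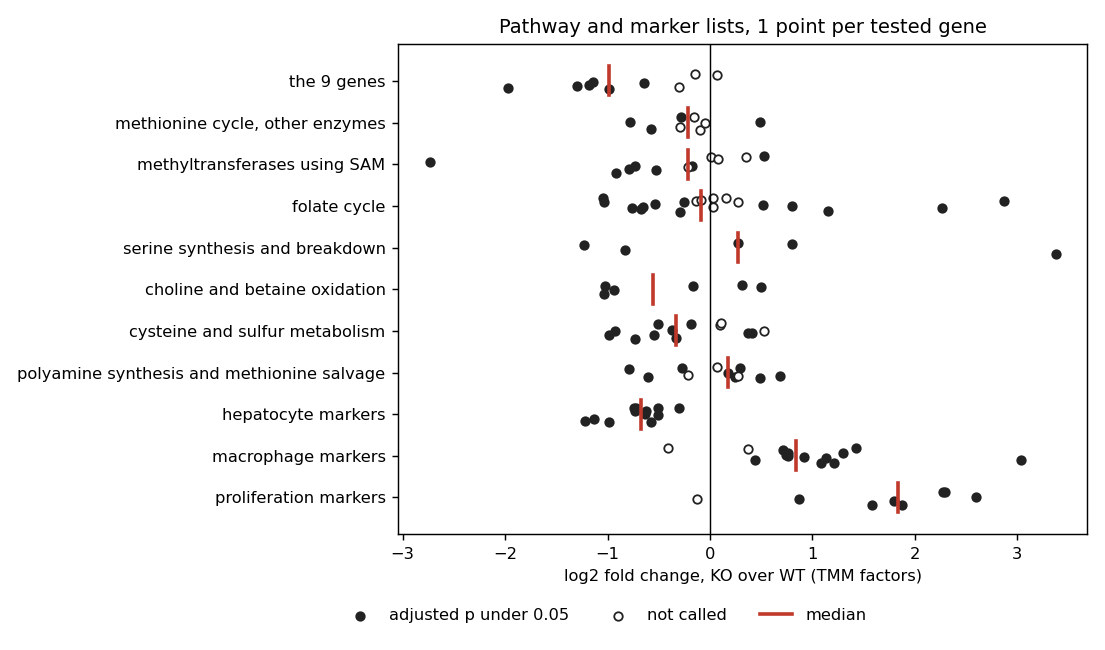
The log2 fold change of KO over WT under TMM factors (horizontal axis) of each tested gene in the 9 genes, the 7 pathway lists and 3 marker lists; filled points have an adjusted p under 0.05, open points do not, and red lines are medians. The 9 genes have a median of -0.98, the hepatocyte markers of -0.68 and the macrophage markers of 0.84, while serine and folate genes reach from -1.23 to 3.38.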

How the data were processed

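RNA was sequenced from livers of 10 KO and 10 WT mice, grouped by the genotype labels, which name no litter or batch. Counts deposited by the authors are whole fragments for each Entrez gene and sum in all 20 mice to the assigned total. Per the file headers, counting set aside 0 multi-mapping fragments, and those made up 3.34% ± 1.90 of fragments in KO and 9.75% ± 3.74 in WT mice (SD, n = 10 each). Names of some deposited tables give Rsubread on mm10 with RefSeq genes, but HISAT2 2.0.5 and DESeq2 stand in the submitters' processing notes; no source used here states whether strand was used. A normalized signal deposited by the authors equals the count times 1 factor per mouse (relative deviation up to 5.11e-15), and their deposited RPKM is that signal per kilobase (up to 1.42e-13). The authors' deposited ROTS and gene ontology tables give log2 fold changes, p-values, FDR and annotated gene counts; the tool behind the gene ontology table is not stated. A further 18 columns of statistics tables were not used.

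The counts were tested with edgeR 4.0.16 in R 4.3.3: filterByExpr (minimum count 10, minimum total count 15; 13670 of 20914 genes kept), TMM factors, robust quasi-likelihood F tests and Benjamini-Hochberg adjustment over all tested genes at 0.05. A prior count of 2 was used for log2 CPM. Ratios and relations between genes used two-sided permutation tests with 100000 resamples; among the 9 genes no relation was pooled over genotypes, and none was computed where a gene's values in a genotype fell into separate sets. The most alike genes were ranked on log2 CPM centred within genotype and pooled over the 20 mice. The test was tried on simulated counts first. Alternatives were DESeq2 1.42.0 and its size factors, upper-quartile factors, library size alone, no filter and a stricter one (10 or more mice with a CPM of 1 or more), limma 3.58.1 (voom with sample weights; trend on log2 of RPKM plus 0.1 or plus 1), and leaving out each mouse. Leaving out KO_391 and WT_441 together was added after seeing the data.

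The 9 genes, the lists, the markers and the motifs were chosen with earlier results of these data known. Named genes are the 9, the 3 genes of each pathway list with the smallest adjusted p, the 2 most alike genes of each of the 9, Hsd17b12 and the first genes of marker lists; others are given as chosen after their values were seen. Exon overlaps are those of the deposited annotation. Some genes of the pathway lists enter the counts and are not reported here by name.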

Additional observations from a re-analysis of the deposited data

Results flagged for a closer look

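Values of each of the 9 genes, of Hsd17b12, of the 4 ratios and of the library measures were checked within each genotype for a single mouse whose gap to the nearest other mouse exceeded 0.466 of the range of 10 mice (Dixon's 95% critical value), and 2 of 36 such checks did so; chance alone gives about 1 in 20. Both concern the mouse KO_391. Its Ahcy level was 1174 CPM, while the other 9 KO mice ranged from 452 to 805 CPM. Its share of multi-mapping fragments was 8.51%, while the other 9 KO mice ranged from 2.10% to 4.05%. WT_441 had the lowest share of the WT mice, 3.40%.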

How the results depend on the processing

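No paired analysis was possible because KO and WT mice share no replicate number. Over 30 alternatives, 5 to 7 of the 9 genes were lower, and Gnmt, Ahcy, Bhmt, Cbs and Cth were called lower in all 30. Library size alone moved counts most: 9355 of all tested genes were then higher and 917 lower, 2 of the 9 genes (Mat2a, Shmt2) were higher, and 41 pathway genes were higher and 16 lower. Mat1a (0.16), Shmt2 (0.33) and Adi1 (0.20) then changed sign, Shmt1, Bhmt2, Tst, Apip and Sdsl lost their call, and 0 WT pairs passed. Without KO_391 1 KO pair passed. Leaving out each mouse gave log2 differences of 0.24 to 0.40 for Mat2a over Mat1a, -0.43 to -0.24 for Cth over Cbs, 0.45 to 0.54 for Shmt2 over Shmt1 and -0.92 to -0.79 for Bhmt over Ahcy. On log2(RPKM + 1) the log2 fold changes of low genes were smaller: 1.29 for Psat1, 1.07 for Mthfd1l, 1.44 for Mthfd2 and 0.25 for Mtr. The higher genes of cysteine and sulfur metabolism numbered 4 with DESeq2 and with its size factors, and 5 with sample weights. The cause of these changes was not tested. Depth limits the lowest genes, such as Psat1 in WT mice.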
